A study of Mus musculus with 18 samples.

Results

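Fibrillar collagens are the genes of the rope-like collagens of the extracellular matrix, and 10 of them were followed here by name: Col1a1, Col1a2, Col3a1, Col5a1, Col5a2, Col5a3, Col2a1, Col11a1, Col24a1 and Col27a1. Each name matched 1 Ensembl gene, so that the members were 10 of the 38924 genes measured, and all 10 passed the filter on low counts that left 16577 genes for testing. RNA was sequenced from fibroblasts of the heart, kidney and tail of donors given as male Rosa mT/mG mice aged 10 weeks. This is a C57BL/6 line in which cells carry a red membrane protein (tdTomato). After 10 days in culture, some of the cells were placed on gelatin foam under the kidney capsule of syngeneic C57BL/6J mice, and 3 days later live cells that were positive for tdTomato and negative for the leukocyte marker CD45 were sorted from the kidneys. The sorted cells of heart, kidney and tail origin are called HFs, KFs and TFs. By the study's description, their controls HFc, KFc and TFc were cells of the same preparations replated for 3 more days. Each group had 3 libraries. The host kept its own kidney around the graft, and the gate did not include a fibroblast marker.

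The 18 libraries held between 17927838 and 32245168 counts. Levels are given as CPM, in which a library's counts are brought to a fixed total and scaled by TMM, a method that assumes most genes to be level between libraries, and 3 counts corresponded to between 0.093 and 0.167 CPM before that scaling. Transplanted libraries varied more than cultured libraries, with a biological coefficient of variation of 0.312 against 0.0782. KFs replicate 3 stood apart from the other KFs libraries. It held 1487 CPM of Xist and 0.719 CPM summed over 4 Y-linked genes, whereas the other 17 libraries held at most 0.404 CPM of Xist, although all donors were given as male. The KFc libraries held 182 to 203 CPM of the Y-linked genes. The library name of KFs replicate 3 begins with Kidney-Fibros, whereas the other KFs libraries are named K1-RNA and K2-RNA. The paper's mouse methods list C57BL/6J, the host strain, among the male adults used. The RNA of KFs replicate 3 thus had a female pattern, unlike that of KFc, and its origin was not tested. Without KFs replicate 3 the coefficient of the transplanted libraries was 0.223. The members' tests and the counts of calls that rest on KFs are therefore given with and without this library. The sum over 7 fibroblast markers was lower in transplants of heart and tail origin, at 4809 to 4963 CPM in HFs against 6289 to 6613 CPM in HFc and 4150.3 to 4706 CPM in TFs against 6354 to 6499 CPM in TFc, and KFs (2206 to 3926 CPM) overlapped KFc (3802 to 3969.6 CPM). Of these markers, 3 were called higher and 3 lower in HFs, 3 and 1 in KFs (the same without replicate 3) and 3 and 2 in TFs. A call in edgeR's test took an adjusted p below 0.05 and a log2 fold change beyond 1 in either direction. Of all genes tested, 18.3% and 9.33% were called higher and lower in HFs and 11.0% and 5.53% in TFs. In KFs the shares were 14.7% and 7.99% (12.9% and 10.3% without replicate 3). Among the markers, Pdgfra, Dcn and Lum rose in each organ, S100a4 fell in each, Vim fell in HFs and TFs, and Thy1 fell in HFs. Vim was the largest part of these sums, at 4951 to 5227 CPM in HFc and 2049.9 to 2371 CPM in HFs. In tail it held 5184 to 5324 CPM in TFc and 2326 to 2892 CPM in TFs. Each of the 7 markers was above 3 counts in every library except Lum in KFc. A list of 9 markers of the proximal tubule, the main cell of the kidney cortex, summed to 129, 982 and 75.7 CPM in HFs against 23.3 to 27.2 CPM in HFc, to 304, 113 and 169 CPM in TFs against 21.3 to 23.2 CPM in TFc, and to 58.1 to 107 CPM in KFs against 105 to 114 CPM in KFc. Kap and Slc34a1, which define that cell, had 0 counts in HFc and KFc and at least 1.2 CPM in every transplanted library.

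Fibrillar collagens are made as procollagens, of which 3 alpha chains wind into a triple helix in the endoplasmic reticulum. Enzymes then hydroxylate, fold, secrete and trim them, and the trimmed molecules assemble side by side into banded fibrils that lysyl oxidases cross-link. Type I collagen, built from Col1a1 and Col1a2 chains, is the bulk of the fibrils of heart, kidney and skin stroma, type III (Col3a1) shares these fibrils, and type V (Col5a1, Col5a2, Col5a3) starts them and limits their width. Type II (Col2a1) and type XI (Col11a1) are the corresponding collagens of cartilage, and types XXIV (Col24a1) and XXVII (Col27a1) form a separate branch of the family. Fibroblasts are the main source of type I and type III collagen in scars.

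In culture, the 10 members together took about the same share of each library's counts in each organ, and after transplantation that share was higher in each organ. The members held 1.99, 1.98 and 2.09% of the counts of the HFc libraries, 1.82, 1.84 and 1.72% of KFc and 2.08, 2.09 and 2.13% of TFc. After transplantation they held 12.1, 11.4 and 7.2% in HFs, 9.96, 7.83 and 2.4% in KFs and 4.53, 3.72 and 3.76% in TFs. Each transplanted library thus lay above each cultured library of its organ, with KFs replicate 3 closest to culture, although an exact permutation test of 3 against 3 libraries cannot give a two-sided p below 0.1. In HFs, the library with the highest proximal tubule sum (replicate 2) lay between the others in collagen share. In KFs and TFs, the library with the highest proximal tubule sum (replicate 1) also had the highest collagen share. A link between these values was not tested. In bulk samples, more cells that make collagen and more collagen RNA per cell cannot be told apart.

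**Figure D1:**
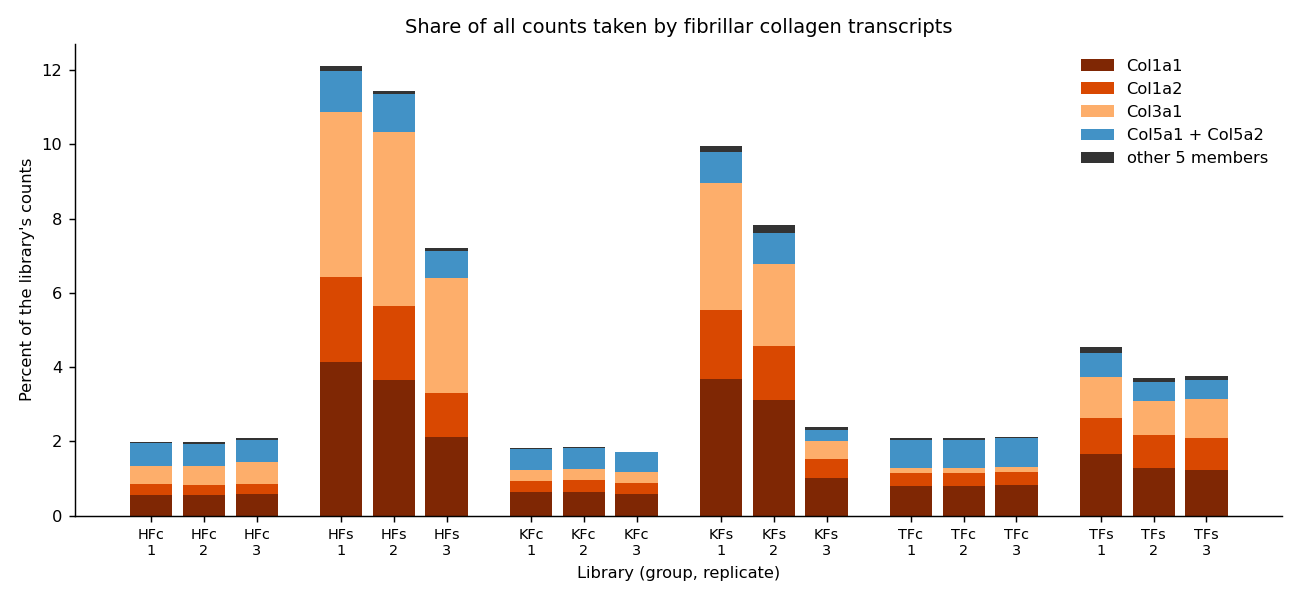
Stacked bars show, for each of the 18 libraries (x axis, group and replicate), the percent of all counts (y axis) that came from Col1a1, Col1a2, Col3a1, Col5a1 with Col5a2, and the other 5 members. The bars lie between 1.72 and 2.13% in the cultured libraries and between 2.4 and 12.1% in the transplanted libraries.

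The makeup of that share also differed between the states. Col1a1, Col1a2 and Col3a1 made up 67.6 to 68.9% of the members' counts in HFc, 68 to 68.3% in KFc and 61.2 to 61.5% in TFc, against 88.8 to 90.2% in HFs, 84.1 to 90% in KFs and 82.1 to 83.2% in TFs. Col5a1 and Col5a2 together made up less, at 29 to 30.2% of the members' counts in HFc against 8.86 to 10.1% in HFs, 30.3 to 30.7% in KFc against 8.38 to 12.4% in KFs, and 36.7 to 37% in TFc against 13.6 to 14.5% in TFs. These ranges did not overlap between the states of any organ, KFs replicate 3 included.

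To ask how transplantation changed each member, HFs, KFs and TFs were compared with their cultured controls. A gene was called where edgeR's quasi-likelihood test gave an adjusted p below 0.05 and the log2 fold change exceeded 1 in either direction. In HFs, 8 of the 10 members were called higher and 1 lower, against 18.3% and 9.33% of all genes tested. In KFs, 7 were called higher and 1 lower, against 14.7% and 7.99%, and in TFs 5 were called higher and 0 lower, against 11.0% and 5.53%. On the log2 scale the members' median change was 2.68 in HFs, 2.07 in KFs and 1.06 in TFs, where the median over all genes tested was 0.05, 0.09 and 0.00. Col1a2, Col3a1, Col5a3, Col24a1 and Col27a1 were called higher in all 3 organs, and Col5a2 was called in none. Groups without overlap were common among all genes tested. Every transplanted library lay above culture in 33.3% of genes and below it in 34% in heart, 26.2% and 25% in kidney, and 29.3% and 31.2% in tail. Between organs, each such share was 25.1 to 31.6% in culture and 16.3 to 23.7% after transplantation. Without KFs replicate 3, 8 members were called higher and 1 lower in KFs, against 12.9% and 10.3% of all genes tested. The log2 fold changes in KFs were then 2.43 ± 0.20 (SE) for Col1a1, 2.45 ± 0.19 for Col1a2, 0.17 ± 0.12 for Col5a2, 4.68 ± 0.26 for Col5a3, -5.88 ± 0.50 for Col2a1 and 2.56 ± 0.12 for Col27a1, of which Col5a2 alone did not pass.

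**Figure D2:**
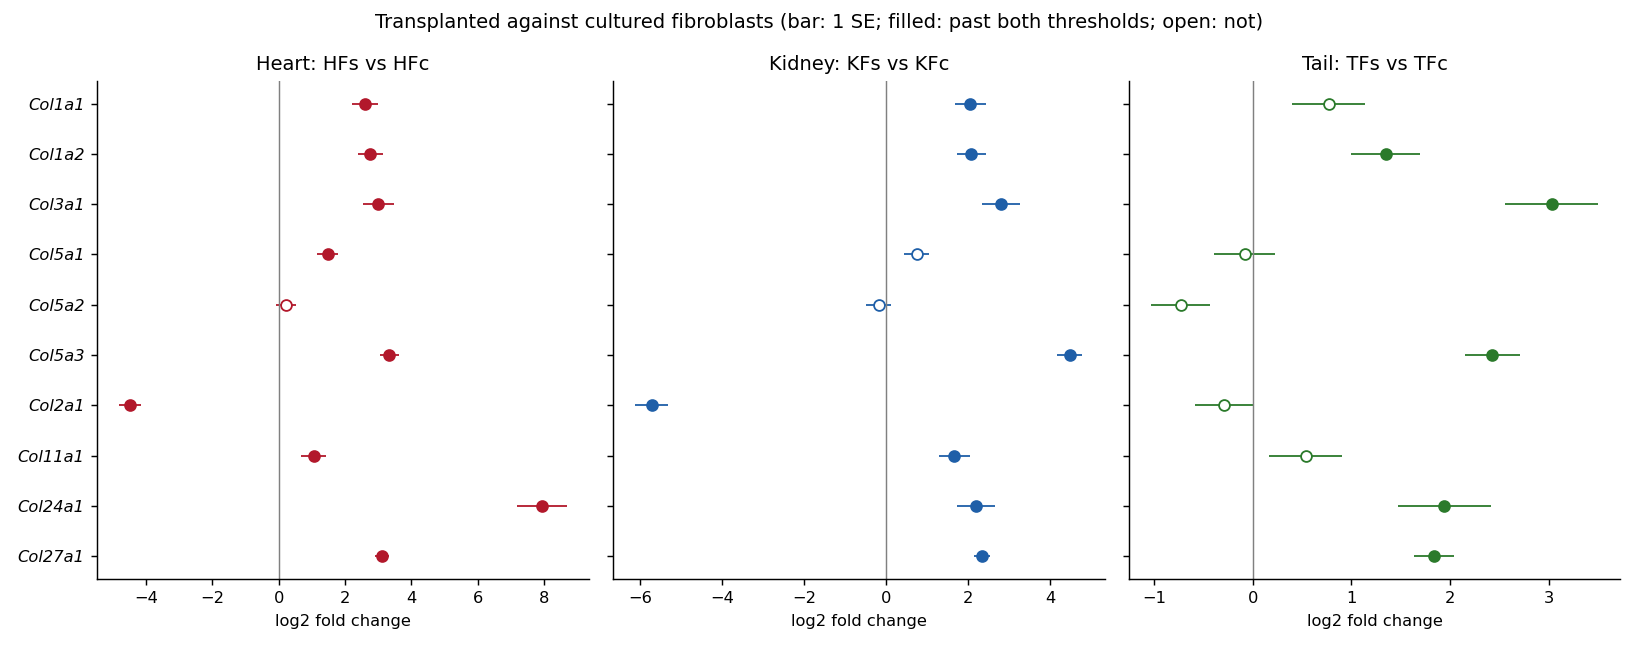
Points show the log2 fold change (x axis) of each member (y axis) in transplanted against cultured fibroblasts of heart, kidney and tail, and bars 1 standard error. Filled points passed both thresholds: 8 higher and 1 lower in heart, 7 and 1 in kidney and 5 and 0 in tail, with Col24a1 of heart at 7.93 farthest to the right and Col2a1 of kidney at -5.72 farthest to the left.

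Promoters are shown for 4 of the 5 members called higher in all 3 organs, since these genes moved in the same direction. RefSeq entries (GRCm38.p6, 250 bases before the annotated start) were found for 7 of the 10 members, and those not found were Col1a1, Col2a1 and Col5a2. The window of Col1a2 crosses 2 exons that GENCODE annotates for that gene and is not printed. Capitals mark 4 short motifs searched on both strands: the CCAAT box (CCAAT), the TATA box (TATAAA), an AP-1 site (TGANTCA) and the core SMAD element (CAGAC, read GTCTG on the opposite strand), none of which overlap in these windows. The windows lie at chr1:45311288-45311537 (plus strand) for Col3a1, chr9:20815068-20815317 (minus strand) for Col5a3, chr3:145292222-145292471 (plus strand) for Col24a1 and chr4:63215162-63215411 (plus strand) for Col27a1, the last within the span that GENCODE gives this gene.
Col3a1: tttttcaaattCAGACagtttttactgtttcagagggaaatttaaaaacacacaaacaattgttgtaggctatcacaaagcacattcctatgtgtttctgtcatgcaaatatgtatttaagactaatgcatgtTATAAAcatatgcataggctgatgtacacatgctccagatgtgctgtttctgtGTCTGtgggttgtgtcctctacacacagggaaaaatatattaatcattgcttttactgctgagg
Col5a3: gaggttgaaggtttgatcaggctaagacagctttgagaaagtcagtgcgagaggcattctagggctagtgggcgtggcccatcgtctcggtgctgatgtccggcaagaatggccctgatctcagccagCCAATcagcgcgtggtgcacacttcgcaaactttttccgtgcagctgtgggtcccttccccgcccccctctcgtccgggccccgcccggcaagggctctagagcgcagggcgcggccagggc
Col24a1: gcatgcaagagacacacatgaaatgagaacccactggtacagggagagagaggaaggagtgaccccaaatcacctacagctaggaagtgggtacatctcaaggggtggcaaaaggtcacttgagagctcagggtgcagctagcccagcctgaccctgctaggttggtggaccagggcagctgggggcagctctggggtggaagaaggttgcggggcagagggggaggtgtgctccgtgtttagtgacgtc
Col27a1: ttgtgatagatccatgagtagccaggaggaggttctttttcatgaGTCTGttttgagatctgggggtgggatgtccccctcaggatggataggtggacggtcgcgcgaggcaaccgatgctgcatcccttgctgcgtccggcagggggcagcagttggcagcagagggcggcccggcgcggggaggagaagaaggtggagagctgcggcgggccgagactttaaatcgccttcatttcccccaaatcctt

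No motif was present in all 4 windows, and TGANTCA was in none of them. Col3a1 held the TATA letters 117 bases before the start and CAGAC at 239 bases, with its reverse at 64 bases. Col5a3 held 1 CCAAT box at 122 bases, Col27a1 held 1 reverse SMAD element at 205 bases, and Col24a1 held 0 of the 4 motifs. CCAAT was present in 33.8% of 32851 mouse promoter windows of this length, TATAAA in 12.4%, TGANTCA in 6.7% and CAGAC in 42.2%. The share of G and C was 35.2% in the Col3a1 window and between 58 and 62.8% in the others, and the median of all windows was 52.4%. A match of letters is a description of the window and says nothing of binding.

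Both chains of type I collagen rose in HFs and KFs, and Col1a2 also passed in TFs. Col1a1 (ENSMUSG00000001506, chr11:94936224-94953042) stood at 5939, 5956 and 6121 CPM in HFc and at 45875, 40059 and 23397 CPM in HFs. In KFs it stood at 37622, 31099 and 8691 CPM against 6327, 6357 and 5898 CPM in KFc, replicate 3 being nearest to culture. In TFs the values were 15976, 12204 and 11271 CPM against 7711, 7621 and 7765 CPM in TFc. The groups did not overlap in any organ, which was common among all genes tested. The log2 fold change of Col1a1 was 2.60 ± 0.39 (SE, adjusted p = 3.91e-05) in HFs and 2.06 ± 0.38 (adjusted p = 0.000359) in KFs, whereas 0.77 ± 0.37 in TFs did not pass (adjusted p = 0.106). Without KFs replicate 3, the value in TFs was 0.75 ± 0.18 (adjusted p = 0.00286), under the fold limit. Col1a2 (ENSMUSG00000029661, chr6:4504814-4541544), the partner chain, stood at 2929 to 3013 CPM in HFc and at 25263, 22021 and 12906 CPM in HFs, and at 2872 to 3075 CPM in KFc. KFs stood at 18945, 14756 and 4516 CPM, and TFs at 8035 to 9229 CPM against 3353 to 3371 CPM in TFc, so that no groups of an organ overlapped. It rose in all 3 organs, by a log2 fold change of 2.76 ± 0.37 in HFs, 2.08 ± 0.36 in KFs and 1.35 ± 0.35 in TFs (adjusted p = 1.45e-05, 0.000209 and 0.00672).

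Col1a1 and Col1a2 were each other's nearest gene over the 18 libraries among all genes tested. After centring each gene on its own mean, their log2 CPM differed by a root mean square of 0.19, where Col1a1 itself varied by 1.05. The next nearest gene was Adam12, a membrane metalloprotease, to Col1a1 (0.35) and Zfp36, which encodes an RNA-binding protein that destabilises cytokine transcripts, to Col1a2 (0.39). Divided by the length of the principal transcript, there were 1.81 to 1.83 Col1a1 counts for each Col1a2 count in HFc, 1.63 to 1.64 in HFs, 1.85 to 1.86 in KFc and 1.74 to 1.9 in KFs. The ratio was 2.05 to 2.08 in TFc and 1.27 to 1.56 in TFs. Tail fibroblasts thus had the highest ratio of the cultured groups and the lowest of the transplanted groups, without overlap with the other organs. With the union of all annotated exons in place of the principal transcript, which lengthens Col1a2 more than Col1a1, the same ratios lay at 3.8 to 3.85 in HFc and 2.66 to 3.28 in TFs.

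Col3a1 (ENSMUSG00000026043, chr1:45311538-45349706), the chain of type III collagen, rose in all 3 organs, by 8-fold in HFs, 6.96-fold in KFs and 8.18-fold in TFs. It stood at 5342, 5424 and 6107 CPM in HFc, 2940.0, 2978 and 2877 CPM in KFc and 1187, 1157 and 1193 CPM in TFc. After transplantation the levels were 49278, 51662 and 33974 CPM in HFs, 34920.1, 22002 and 4245 CPM in KFs and 10457, 8774 and 9714 CPM in TFs. In culture the organs did not overlap, with heart highest and tail lowest. After transplantation HFs and TFs did not overlap, whereas KFs ranged from below TFs, at replicate 3, into the range of HFs. The log2 fold change was 3.00 ± 0.47 in HFs (adjusted p = 7.12e-05), 2.80 ± 0.47 in KFs (adjusted p = 0.000168) and 3.03 ± 0.47 in TFs (adjusted p = 0.000146), and 3.24 ± 0.18 in KFs without replicate 3. The response in HFs differed from that in TFs by -0.03 ± 0.62 on the log2 scale (adjusted p = 0.991), which does not show that they were alike. The nearest genes were Serping1, the inhibitor of complement C1 (root mean square difference 0.62, where Col3a1 itself varied by 1.76), and Cyp2d22 (0.65).

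Relative to type I collagen, Col3a1 was higher after transplantation in each organ. Per kb of the principal transcript, there were 0.959 to 1.06 Col3a1 counts for each Col1a1 count in HFc, 0.495 to 0.52 in KFc and 0.162 to 0.164 in TFc. After transplantation the ratios were 1.14, 1.37 and 1.55 in HFs, 0.989, 0.754 and 0.521 in KFs and 0.698, 0.766 and 0.919 in TFs. Each transplanted library lay above its cultured group, except that KFs replicate 3 was level with KFc (0.521 against 0.52), and KFs and TFs overlapped where KFc and TFc had not.

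**Figure D3:**
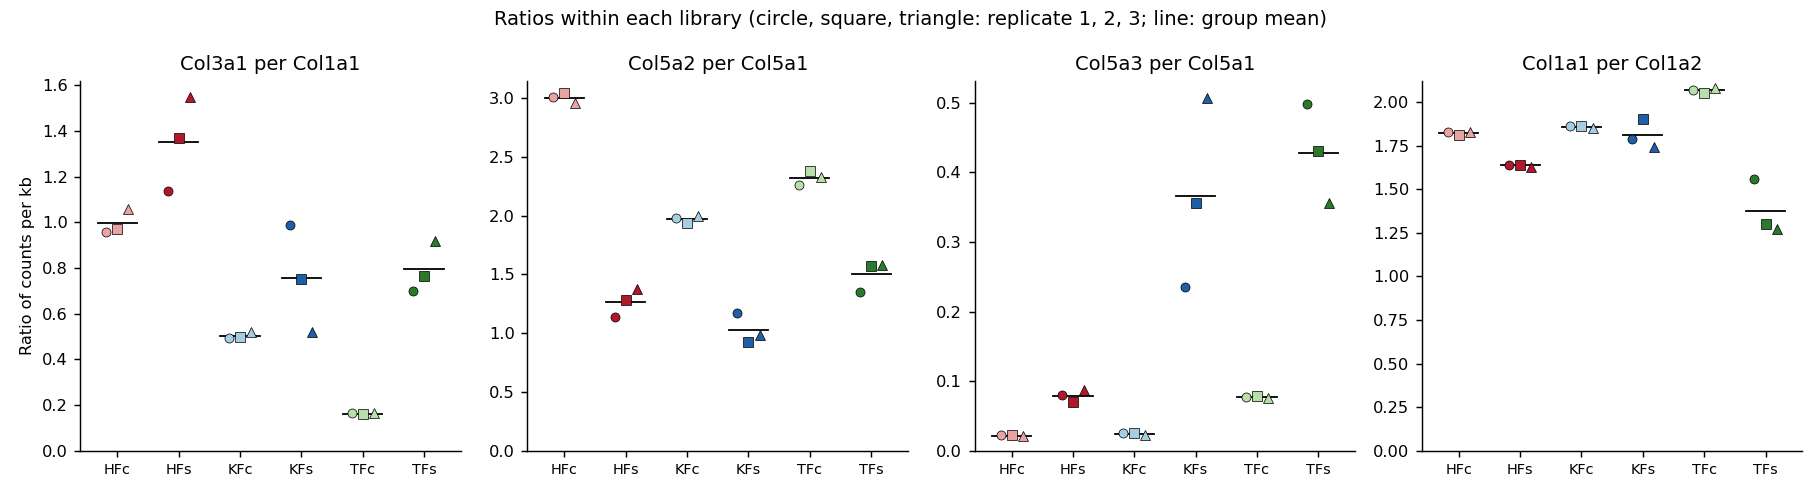
Each panel shows a ratio of counts per kb of principal transcript between 2 members (y axis) in each library of the 6 groups (x axis), with a line at the group mean. Col3a1 per Col1a1 lies at 0.162 to 0.164 in TFc and 0.698 to 0.919 in TFs, Col5a2 per Col5a1 is lower in every transplanted group, Col5a3 per Col5a1 is higher in every transplanted group, and Col1a1 per Col1a2 is lowest in TFs.

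The chains of type V collagen did not move together. Col5a1 (ENSMUSG00000026837, chr2:27886425-28039514) stood at 1882, 1867 and 1926 CPM in HFc and 6445, 5554 and 3811 CPM in HFs, and rose by a log2 fold change of 1.48 ± 0.32 (adjusted p = 0.00095). In kidney it stood at 2177, 2177 and 2018 CPM in KFc and at 4424, 4863 and 1449.5 CPM in KFs, so that replicate 3 lay below culture and the other 2 libraries above it. The log2 fold change of 0.75 ± 0.31 did not pass (adjusted p = 0.0562), and without replicate 3 it was 1.09 ± 0.17 (adjusted p = 5.18e-05). In tail, the 2522 to 2638 CPM of TFc lay within the 3049, 2153 and 2172 CPM of TFs, with a log2 fold change of -0.08 ± 0.31 (adjusted p = 0.864). The 2 noncoding genes that overlap Col5a1 on the opposite strand, 2810430I11Rik and Gm13372, held 1613 and 60 counts over all libraries.

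Col5a2 (ENSMUSG00000026042, chr1:45374321-45503282), the usual partner of Col5a1 in the type V molecule, lies close to Col3a1 on chromosome 1 but did not rise with it. It stood at 4461, 4468 and 4487 CPM in HFc against 5798, 5616 and 4157 CPM in HFs, 3399, 3323 and 3183 CPM in KFc against 4087, 3545 and 1123 CPM in KFs, and 4700.4, 4722 and 4824 CPM in TFc against 3233, 2661 and 2708 CPM in TFs. Heart and kidney groups overlapped, and each TFs library lay below TFc. None of the log2 fold changes passed: 0.22 ± 0.30 in HFs (adjusted p = 0.563), -0.18 ± 0.30 in KFs (adjusted p = 0.65) and -0.73 ± 0.30 in TFs (adjusted p = 0.0683). Without KFs replicate 3, the value in TFs was -0.75 ± 0.11 (adjusted p = 4.12e-05), which missed the fold limit alone. The adjusted p was then 0.0727 in HFs and 0.263 in KFs. The nearest genes were Rnase4, a secreted ribonuclease (0.21, where Col5a2 varied by 0.52), and Ssr4, a subunit of the complex at which proteins enter the endoplasmic reticulum (0.26). Those of Col5a1 were Cercam (0.29, where Col5a1 varied by 0.59) and Mmp14, a membrane-bound collagenase (0.31).

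The balance between the 2 chains shifted in the same direction in all 3 organs. There were 2.96 to 3.04 Col5a2 counts for each Col5a1 count, per kb, in HFc, 1.94 to 2 in KFc and 2.26 to 2.38 in TFc. The ratio was 1.14 to 1.38 in HFs, 0.925 to 1.17 in KFs and 1.35 to 1.58 in TFs, with no overlap between the states of an organ. Against Col1a1, Col5a1 was also lower after transplantation, at 0.221 to 0.224 per kb in HFc, 0.241 to 0.243 in KFc and 0.233 to 0.241 in TFc, and at 0.0978 to 0.115 in HFs, 0.083 to 0.118 in KFs and 0.124 to 0.136 in TFs.

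Col5a3 (ENSMUSG00000004098, chr9:20770050-20815067), the rarest type V chain, rose in all 3 organs. It stood at 30.3, 30.4 and 29.3 CPM in HFc, 39.5, 40.7 and 34.3 CPM in KFc and 148, 143 and 145 CPM in TFc. In HFs it reached 379, 282 and 242 CPM, in KFs 757, 1259.6 and 535 CPM, and in TFs 1106, 675 and 563 CPM. The groups did not overlap in any organ, and here KFs replicate 3 also lay far above KFc. The log2 fold change was 3.33 ± 0.29 in HFs (adjusted p = 2.47e-07), 4.48 ± 0.31 in KFs (adjusted p = 3.2e-08) and 2.43 ± 0.28 in TFs (adjusted p = 8.91e-06). Per kb, Col5a3 amounted to 0.0209 to 0.0223 of Col5a1 in HFc and 0.0696 to 0.0874 in HFs, 0.0233 to 0.0257 in KFc and 0.235 to 0.507 in KFs, and 0.0756 to 0.0781 in TFc and 0.356 to 0.498 in TFs. Rcor2, a corepressor subunit (0.52), and Slc16a3, a lactate exporter (0.53), were nearest, where Col5a3 varied by 1.90.

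**Figure D4:**
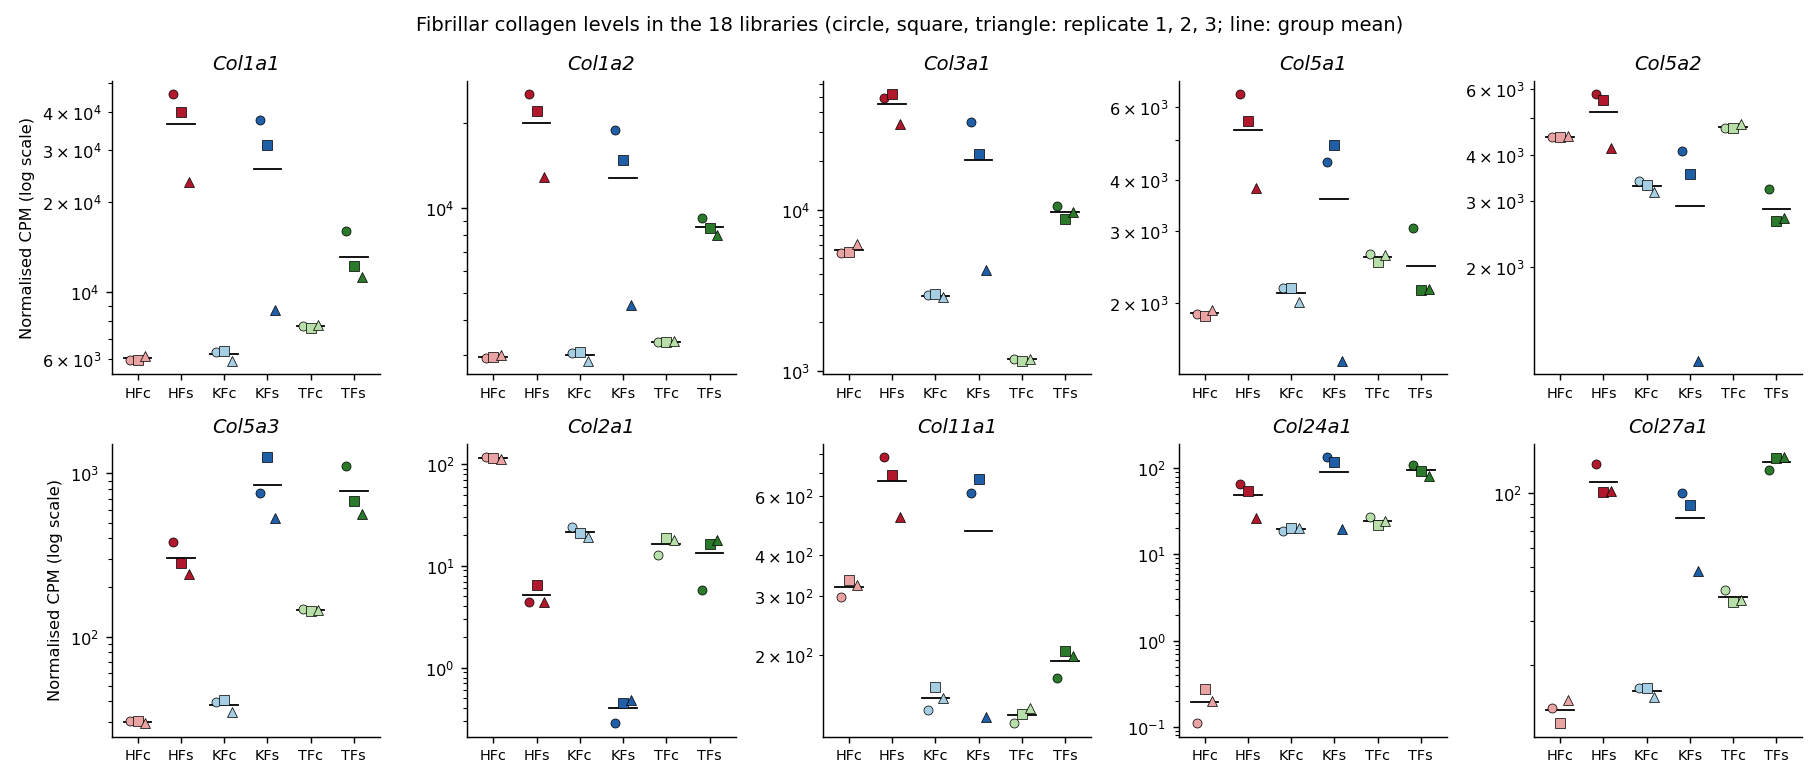
Points show the normalised CPM (y axis, log scale, a range of its own in each panel) of each member in the 3 libraries of each group (x axis), and lines the group means. Col2a1 is the member with a clear fall in heart and kidney, Col24a1 lies at 0.109 to 0.271 CPM in HFc, and the triangle of KFs (replicate 3) lies below the other KFs libraries in 9 panels, Col2a1 being the exception.

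Col2a1 (ENSMUSG00000022483, chr15:97975602-98004695), the cartilage collagen, went the other way. It stood at 117, 114 and 111 CPM in HFc and at 4.45, 6.52 and 4.44 CPM in HFs. In kidney it stood at 24.3, 21.2 and 19.4 CPM in KFc against 0.283, 0.449 and 0.479 CPM in KFs, the latter from 7, 14 and 12 counts. Neither pair of groups overlapped. It fell by 4.47 ± 0.33 on the log2 scale in HFs (adjusted p = 4.2e-08) and fell by 5.72 ± 0.40 in KFs (adjusted p = 4.06e-08). In tail, the levels of 12.8, 18.7 and 18.1 CPM in TFc and 5.83, 16.3 and 18.1 CPM in TFs overlapped, with a log2 fold change of -0.29 ± 0.29 (adjusted p = 0.443). The nearest gene was Igfbp2, an insulin-like growth factor binding protein (0.79, where Col2a1 varied by 2.42), followed by Plac9a (0.98).

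Most defining genes of cartilage were at or near 0 in HFc, where Col2a1 was highest. Of 8 chondrocyte markers, the summed level was 331 to 350.3 CPM in HFc, 176 to 220.3 CPM in HFs, 18.2 to 21.6 CPM in KFc, 25.9 to 80.3 CPM in KFs, 76.2 to 87.9 CPM in TFc and 32.3 to 43.1 CPM in TFs. Sox9, the transcription factor that drives cartilage genes and is also present in other connective tissue cells, accounted for 328 to 349 CPM of the sum in HFc. The defining cartilage genes Col9a1, Snorc and Cnmd had 0 counts in HFc, Matn1 had at most 4, and Acan lay between 0.737 and 1.52 CPM. Of 14 chondrogenic genes (Col2a1 not among them), 10 could be tested, and 3 were called higher and 1 lower in HFs, 4 and 1 in KFs (3 and 1 without replicate 3), and 1 and 1 in TFs, with medians of 0.95, 1.17 and -0.12 on the log2 scale. Of all genes tested, 18.3% and 9.33% were called higher and lower in HFs, 14.7% and 7.99% in KFs (12.9% and 10.3% without replicate 3) and 11.0% and 5.53% in TFs. Comp, a cartilage and tendon glycoprotein, rose in HFs from 1.85 to 19.6 CPM (log2 fold change 3.42 ± 0.37, adjusted p = 1.78e-06) and fell in KFs from 1.95 to 0.166 CPM (-3.47 ± 0.60). Col9a2 rose in HFs from 0.218 to 2.07 CPM and Matn3 in KFs from 0.141 to 0.712 CPM. Acan, at 0 counts in KFc, stood at 0.0808, 0.384 and 1.12 CPM in KFs, replicate 3 being highest, and was called with and without that library (adjusted p = 0.00139 and 0.00489). Hapln1, at 0 counts in HFs, was called lower there from 0.0364, 0.474 and 0 CPM in HFc, where replicate 2 held 14 counts. In TFs, Sox5 rose from 1.41 to 9.95 CPM (2.80 ± 0.23, adjusted p = 3.04e-07) and Sox9 fell from 74.9 to 34 CPM.

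Col11a1 (ENSMUSG00000027966, chr3:114030540-114220718), which joins type II collagen in cartilage and type V elsewhere, moved opposite to Col2a1 in heart and kidney. It stood at 299, 335 and 325 CPM in HFc and 783, 689.7 and 518 CPM in HFs, with a log2 fold change of 1.05 ± 0.37 (adjusted p = 0.0244). That call was lost when any HFc library or HFs replicate 1 was left out (adjusted p between 0.0545 and 0.0718), and when libraries were scaled by total count alone, where the log2 fold change was 0.99. Without KFs replicate 3, which is not in this comparison but enters the shared spread, Col11a1 passed at 1.07 ± 0.12 (adjusted p = 1.41e-06). In KFs it stood at 611, 674 and 131 CPM against 137, 160.2 and 149 CPM in KFc. Replicate 3 lay below each KFc library and the other libraries above, and the log2 fold change was 1.67 ± 0.38 (adjusted p = 0.00186), or 2.07 ± 0.13 without replicate 3. When only KFs and KFc were fitted it was 1.68 (adjusted p = 0.0606). The 171, 206 and 199 CPM of TFs lay above the 125, 133 and 139 CPM of TFc, but the log2 fold change of 0.54 ± 0.37 did not pass (adjusted p = 0.267). Without KFs replicate 3, the value in TFs was 0.52 ± 0.12 (adjusted p = 0.00223), under the fold limit. Fdxr, a mitochondrial reductase (0.38), and Skida1 (0.43) were nearest, where Col11a1 varied by 0.93.

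Col24a1 (ENSMUSG00000028197, chr3:145292472-145552011), a minor collagen known from bone and cornea, was near the limit of detection in cultured heart fibroblasts and present in every other group. The HFc libraries held 3, 8 and 4 counts, or 0.109, 0.271 and 0.197 CPM. Together these 15 counts gave 0.183 CPM before TMM scaling (95% exact Poisson interval 0.102 to 0.302, counting error only). The HFs libraries held 65, 54 and 26.8 CPM. In kidney the levels were 18.8, 20.1 and 20.2 CPM in the cultured and 135, 117 and 19.9 CPM in the transplanted libraries, and in tail 27.2, 21.7 and 24.6 CPM and 109.6, 91.9 and 81.4 CPM, respectively. It rose in HFs by a log2 fold change of 7.93 ± 0.75 (adjusted p = 4.78e-07), in KFs 4.6-fold (adjusted p = 0.00125) and in TFs by a log2 fold change of 1.94 ± 0.47 (adjusted p = 0.00417). KFs replicate 3 lay within KFc, and without it the log2 fold change was 2.63 ± 0.24. Mfap2 (0.55) and Fbn2 (0.96), which encode proteins of elastic microfibrils, were nearest, where Col24a1 varied by 2.90. A list of 6 osteoblast markers did not exceed 3.24 CPM in any library.

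Col27a1 (ENSMUSG00000045672, chr4:63214004-63334991), known from cartilage and from developing tissues, rose in all 3 organs. It stood at 13.3, 11.5 and 14.3 CPM in HFc, 16.1, 16.1 and 14.8 CPM in KFc and 40.1, 36 and 36.6 CPM in TFc. The transplanted levels were 131, 101 and 102 CPM in HFs, 100.4, 89.4 and 48.2 CPM in KFs and 124, 139 and 140.4 CPM in TFs. No groups of the same organ overlapped. The log2 fold change was 3.10 ± 0.21 in HFs (adjusted p = 1.92e-08), 2.34 ± 0.20 in KFs (adjusted p = 3.03e-07) and 1.84 ± 0.20 in TFs (adjusted p = 4.29e-06). Irf1, an interferon-responsive transcription factor (0.31), and Il1r1, the receptor of interleukin 1 (0.32), were nearest, where Col27a1 varied by 1.33.

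Levels can be compared between genes only per kb of transcript, which for the members was between 5.1 kb (Col2a1) and 8.41 kb (Col5a1). On that scale, the order in HFc was Col1a1 (1013 ± 16.9 CPM per kb, SD, n = 3) and Col3a1 (1011 ± 75.5), which did not differ beyond their spread, followed by Col5a2 (675 ± 2.03), Col1a2 (555 ± 7.87), Col5a1 (225 ± 3.64), Col11a1 (41.7 ± 2.47), Col2a1 (22.4 ± 0.512), Col5a3 (4.9 ± 0.0991), Col27a1 (1.71 ± 0.188) and Col24a1 (0.0269 ± 0.0113). In HFs, Col3a1 came first at 8083 ± 1725, ahead of Col1a1 at 6146 ± 1967. The spread of the libraries exceeded that gap. Within each HFs library Col3a1 was the higher per kb of principal transcript, with ratios of 1.14 to 1.55 to Col1a1. With the union of all annotated exons as length, Col3a1 was the lower in each HFs library, with ratios of 0.718 to 0.971. The same ratios were then 0.601 to 0.667 in HFc, so that the order of members depends on the length used. On the principal transcript, Col5a2 (783 ± 136) lay behind Col1a2 (3752 ± 1198). In TFc, Col1a1 (1298 ± 12.2) and Col5a2 (717 ± 9.97) led, and Col3a1 stood behind Col1a2 and Col5a1 at 212 ± 3.4. In TFs, Col1a1 (2218 ± 420.1), Col3a1 (1734 ± 152) and Col1a2 (1605 ± 113) led, and the means of Col3a1 and Col1a2 differed by less than the SD of Col3a1. In KFc the leading members were Col1a1 (1045 ± 43.3), Col1a2 (562 ± 21.3), Col3a1 (527 ± 9.12) and Col5a2 (498 ± 16.6). In KFs, Col1a1 stood at 4351 ± 2559, Col3a1 at 3665 ± 2768 and Col1a2 at 2382 ± 1388. These SDs hold the differences between libraries, and within each KFs library Col1a1 exceeded both Col1a2 (ratios of 1.74 to 1.9) and Col3a1 (Col3a1 at 0.521 to 0.989 of Col1a1).

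To ask which members mark the organ, the groups were compared within culture and within the transplants, with the adjusted p threshold alone. Cultured heart differed from cultured tail fibroblasts in 6 members, against 41.9% of all genes tested. Col3a1 (log2 fold change 2.25 ± 0.46, adjusted p = 0.000987), Col2a1 (2.79 ± 0.30, adjusted p = 2.02e-06) and Col11a1 (1.27 ± 0.37, adjusted p = 0.0122) were higher in heart, and Col5a3 (-2.28 ± 0.28, adjusted p = 9.74e-06), Col24a1 (-6.95 ± 0.75, adjusted p = 2.3e-06) and Col27a1 (-1.53 ± 0.20, adjusted p = 1.63e-05) were lower. Cultured kidney differed from cultured tail fibroblasts in 3 members, against 36.4%: Col3a1 was higher (1.31 ± 0.45, adjusted p = 0.031), and Col5a3 (-1.93 ± 0.28) and Col27a1 (-1.26 ± 0.20) were lower. Between heart and kidney in culture, Col2a1 (2.40 ± 0.29) and Col11a1 (1.10 ± 0.37) were higher and Col24a1 (-6.63 ± 0.75) lower in heart, 3 members against 29.2% of all genes. When only the 2 cultured groups were fitted, which removes the wider spread of the transplants, 10 of 10 members passed in each of these comparisons, against 62.4%, 58% and 51% of the genes then tested.

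After transplantation, heart differed from tail fibroblasts in 7 members, against 23.1% of all genes tested. Higher in HFs were Col1a1 (1.47 ± 0.37, adjusted p = 0.00911), Col1a2 (1.23 ± 0.35, adjusted p = 0.0189), Col3a1 (2.22 ± 0.46, adjusted p = 0.00242), Col5a1 (1.10 ± 0.31, adjusted p = 0.0183) and Col11a1 (1.79 ± 0.38, adjusted p = 0.00285). Lower in HFs were Col5a3 (-1.38 ± 0.27, adjusted p = 0.00166) and Col2a1 (-1.39 ± 0.30, adjusted p = 0.00363), the latter with groups that overlapped at TFs replicate 1. Col2a1 thus changed sides between the states. Without KFs replicate 3, which is not in this comparison, 9 members differed, against 31% of all genes tested. Col5a2 (0.87 ± 0.11, adjusted p = 1.37e-05) was then also higher and Col24a1 (-0.95 ± 0.22, adjusted p = 0.00318) also lower in HFs. Kidney differed from tail fibroblasts in 3 members, against 29.1%, with Col11a1 higher (1.30 ± 0.37, adjusted p = 0.0165) and Col2a1 (-5.03 ± 0.40, adjusted p = 5.13e-07) and Col27a1 (-0.76 ± 0.19, adjusted p = 0.00711) lower in KFs. Without KFs replicate 3 there were 8, against 35.1%, since Col1a1 (1.39 ± 0.20), Col3a1 (1.56 ± 0.17), Col1a2 (0.98 ± 0.18), Col5a1 (0.92 ± 0.17) and Col5a2 (0.42 ± 0.12) were then also higher in KFs. Between HFs and KFs, Col5a2 (0.83 ± 0.30, adjusted p = 0.046) and Col2a1 (3.64 ± 0.41, adjusted p = 1.37e-05) were higher and Col5a3 (-1.50 ± 0.27, adjusted p = 0.000688) lower in HFs, 3 members against 33.2%. Without KFs replicate 3, 5 members differed, against 38.8%, including Col24a1 (-1.37 ± 0.24) and Col3a1 (0.67 ± 0.18).

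**Figure D5:**
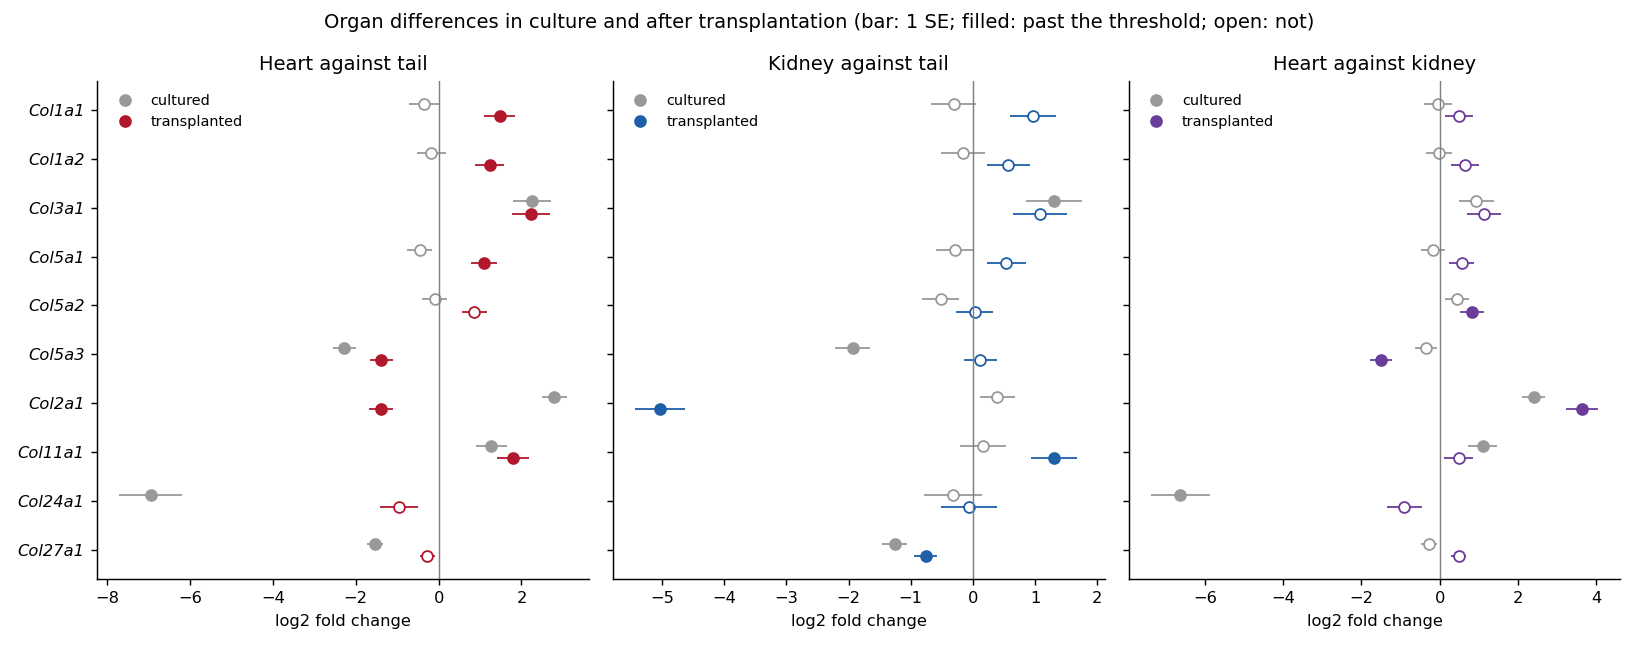
Points show the log2 fold change (x axis) between organs of each member (y axis), gray for cultured and colored for transplanted fibroblasts, with bars of 1 standard error. Filled points passed the adjusted p threshold, and Col2a1 moves from 2.79 to -1.39 between heart and tail and Col24a1 from -6.95 to -0.96.

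The difference between the organs' responses was then tested itself, as an interaction. Between heart and tail, 5 members passed, against 22.8% of all genes tested: the responses of Col1a1, Col5a1, Col24a1 and Col27a1 were larger in heart, by 1.83 ± 0.52, 1.56 ± 0.44, 5.99 ± 0.91 and 1.25 ± 0.27 on the log2 scale, and that of Col2a1 was more negative in heart, the difference being -4.18 ± 0.42. Col1a2 missed the threshold at 1.40 ± 0.49 (adjusted p = 0.0506). Between kidney and tail, Col5a3 (2.05 ± 0.38) and Col2a1 (-5.42 ± 0.50) passed, 2 members against 11.1%, and without KFs replicate 3 there were 8 against 21.4%. Between heart and kidney, Col5a3 (-1.15 ± 0.38) and Col24a1 (5.73 ± 0.91) passed, 2 against 26.2%, and without KFs replicate 3 there were 4 against 35.2%. The Col5a3 difference (adjusted p = 0.0359) lost its call with no filter on low counts (0.0508), with only the groups compared (0.0634) and without any 1 of 9 single libraries (0.0567 to 0.133). In the comparison of heart and tail, which does not use the library, leaving out KFs replicate 3 narrowed the shared spread, and 9 members then passed, against 32.3%.

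Around the collagens, 4 lists of genes of the same pathway were followed. Their counts are read against all genes tested, of which 18.3% were called higher and 9.33% lower in HFs, 14.7% and 7.99% in KFs and 11.0% and 5.53% in TFs. Without KFs replicate 3 the shares in KFs were 12.9% and 10.3%, and each gene of the 4 lists named for kidney as risen or fallen was also called without that library. Of 19 genes that fold, hydroxylate and secrete procollagen, 18 were tested, and 4 were called higher and 1 lower in HFs, 5 and 0 in KFs (7 and 0 without replicate 3) and 3 and 1 in TFs, with medians of -0.02, 0.62 and 0.18 on the log2 scale. Plod1, a lysyl hydroxylase, rose in all 3 organs, from 52.8 to 146 CPM in heart (log2 fold change 1.47 ± 0.28, adjusted p = 0.000418), from 49.4 to 133 CPM in kidney (1.43 ± 0.28) and from 61.3 to 149 CPM in tail (1.28 ± 0.28). Among the subunits of prolyl 4-hydroxylase, P4ha2 rose in all 3 organs (1.40 ± 0.27 in heart, 1.83 ± 0.27 in kidney and 1.06 ± 0.27 in tail, adjusted p = 0.00545 in tail) and P4ha3 in heart (1.46 ± 0.33), and the prolyl 3-hydroxylase P3h2 in tail (2.63 ± 0.28). P3h4, part of a lysyl hydroxylation complex, changed by -1.07 ± 0.20 in heart and -1.48 ± 0.20 in tail.

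Of 13 genes that trim or cross-link procollagen, 12 were tested, and 3 were called higher and 1 lower in HFs, 2 and 1 in KFs (the same counts without replicate 3) and 3 and 1 in TFs, with medians of 0.46, 0.23 and 0.52. Procollagen N-proteinases remove the amino-terminal propeptide. Of these, Adamts3 rose from 1.22 to 16.8 CPM in heart (3.81 ± 0.46, adjusted p = 5.34e-06), from 2.22 to 20.4 CPM in kidney (3.20 ± 0.43) and from 6.8 to 20.6 CPM in tail (1.60 ± 0.40). Adamts14 rose by 1.89 ± 0.20, 3.20 ± 0.21 and 2.98 ± 0.21. The third, Adamts2, was not called, at 0.93 ± 0.36 in heart (adjusted p = 0.036, under the fold limit), -0.08 ± 0.35 in kidney and 0.77 ± 0.36 in tail (adjusted p = 0.0998). Tll1, a C-proteinase, fell from 16.1 to 7.04 CPM in heart and from 68.9 to 16.5 CPM in kidney (-2.06 ± 0.15), and Pcolce2, an enhancer of C-proteinases, fell in tail (-1.49 ± 0.26).

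Of 19 genes of proteins that sit on fibrils, 18 were tested, and 9 were called higher and 0 lower in HFs, 6 and 3 in KFs (5 and 3 without replicate 3), and 6 and 2 in TFs, with medians of 1.52, 0.46 and 0.74. Decorin (Dcn), a small proteoglycan that binds fibrils, rose from 57.1 to 1592 CPM in heart (4.80 ± 0.58, adjusted p = 5.89e-06), from 13.5 to 321 CPM in kidney (4.57 ± 0.58) and from 42.8 to 636 CPM in tail (3.90 ± 0.56). Lumican (Lum) rose by 7.04 ± 1.03 in heart and by 7.13 ± 1.21 in kidney from levels below 1 CPM. In tail, Kera rose at least 36.7-fold against a floor of 3 counts per TFc library, and Fmod and Col12a1 had log2 fold changes of -1.83 ± 0.66 and -1.23 ± 0.41. In kidney, Col19a1 fell by 3.71 ± 0.92.

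Of 15 collagen receptors and proteases, 7 were called higher and 1 lower in HFs, 4 and 5 in KFs (6 and 4 without replicate 3) and 6 and 2 in TFs, with medians of 0.69, 0.39 and 0.77. Mmp9, a gelatinase, rose in all 3 organs, from 0.0983 to 41.3 CPM in heart (8.95 ± 0.65, adjusted p = 3.95e-08), from 3.56 to 34.6 CPM in kidney (3.29 ± 0.41) and from 0.782 to 81.1 CPM in tail (6.67 ± 0.49). Collagenases were also called, Mmp8 in heart (4.28 ± 0.96) and, from at most 2 counts per TFc library, in tail, and Mmp13 in kidney (1.86 ± 0.61) and tail, where it rose from 1.8 to 461 CPM (8.03 ± 0.65). The collagen receptor Ddr1 fell in all 3 organs (-1.45 ± 0.17 in heart, -1.52 ± 0.17 in kidney and -1.68 ± 0.17 in tail). The collagen-binding integrin Itga11 went opposite ways, with a rise in heart from 40.7 to 162 CPM (1.99 ± 0.45, adjusted p = 0.00147) and a fall in kidney from 447 to 74.8 CPM (-2.58 ± 0.46, adjusted p = 0.000266), whereas 0.77 ± 0.44 in tail did not pass. The inhibitory receptor Lair1, which is found on leukocytes, fell in kidney (-2.66 ± 0.71) and tail (-2.10 ± 0.79). Macrophage markers moved beside these: 7 genes summed to 372 to 391 CPM in KFc and 11.2 to 134 CPM in KFs, 163 to 192 CPM in TFc and 36.2 to 43.5 CPM in TFs, and 85.4 to 97.7 CPM in HFc and 89.3 to 151 CPM in HFs. A list of 7 endothelial markers summed to 60.5 to 69.1 CPM in HFs against 39.8 to 42.6 CPM in HFc, 25.7 to 47.5 CPM in KFs against 35 to 37.3 CPM in KFc and 44 to 48.5 CPM in TFs against 37.6 to 43 CPM in TFc. Of these, 6 were called higher and 0 lower in HFs, 4 and 1 in KFs (4 and 0 without replicate 3) and 3 and 0 in TFs. Of all genes tested, 18.3%, 14.7% and 11.0% were called higher in HFs, KFs and TFs, and 9.33%, 7.99% and 5.53% lower. In HFs, KFs and TFs, the proximal tubule markers called higher were 9, 6 and 9 of 9 (5 in KFs without replicate 3), and 0 were called lower. The part of host or other cells in these changes was not tested.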

How the data were processed

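Stranded total RNA libraries of fibroblasts, 3 for each of 6 groups taken from the sample labels, gave single reads of 75 bases. According to the paper's methods, the authors trimmed reads for quality and assigned them to genes with RSEM and Bowtie2 on GRCm38, and the submitters' processing notes list RSEM, Bowtie and mm9. The authors deposited expected counts per gene, as whole numbers without normalization, and the annotation release is not given in the sources used here. No coordinate came from the deposited counts. Symbols, positions and lengths came from GENCODE mouse release 21 on GRCm38, which held 37607 of 38924 identifiers, and the other 1317 stayed in the tests. RSEM shares reads between genes that resemble each other, and the count of a collagen can hold some reads of another.

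The quasi-likelihood test of edgeR 4.0.16 (R 4.3.3) was fitted to all 18 libraries, with a mean for each group, TMM scaling and the filterByExpr filter. Benjamini-Hochberg adjustment ran over 16577 genes. Standard errors are the absolute log2 fold change over the root of the F statistic. Transplant comparisons used an adjusted p of 0.05 and a log2 fold change limit of 1, and the other comparisons the adjusted p alone. Ratios and shares used the deposited counts, ratios after division by the length of the principal transcript, and likeness between genes the root mean square difference of centred log2 CPM with a prior count of 2. The paper calls the replicates biological, and no source ties them to single animals, so that p-values cover the spread between these libraries. No molecular identifiers are used here, and floors and intervals cover counting error only. The fit was tested on simulated data.

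The members and lists were chosen with earlier results of these data known. All members are named throughout, and of each pathway list up to 2 called genes with the largest rise and up to 2 with the largest fall per transplant comparison. Marker lists are given as sums. For each member the 2 nearest genes are named. Kap, Slc34a1, the single chondrocyte markers, Xist and Y-linked genes are named beyond this rule, as checks of cell type and sample, as are the fibroblast markers. Adamts2, and P4ha2, Itga11, Ddr1 and Mmp8 in organs where they were not among the largest changes, were named after their values were seen. Alternatives were DESeq2 1.42.0, its size factors, library size alone, no filter, a mean of at least 10 counts, the replicate number as a block, other thresholds, fits of only the groups compared, each replicate left out in turn, and, added after seeing the data, exon-union lengths and lists without KFs replicate 3. Figures were drawn in Python 3.11.15 with matplotlib 3.10.9.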

Additional observations from a re-analysis of the deposited data

Results flagged for a closer look

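There were 9 differences between the organs' responses to transplantation that passed the interaction test in edgeR (adjusted p below 0.05), each the log2 fold change in the first organ minus that in the second. Between heart and tail these were Col1a1 (1.83, adjusted p = 0.0191), Col5a1 (1.56, adjusted p = 0.0188), Col2a1 (-4.18, adjusted p = 9.22e-06), Col24a1 (5.99, adjusted p = 0.000298) and Col27a1 (1.25, adjusted p = 0.00424). Between kidney and tail they were Col5a3 (2.05, adjusted p = 0.00313) and Col2a1 (-5.42, adjusted p = 1.29e-05), and between heart and kidney Col5a3 (-1.15, adjusted p = 0.0359) and Col24a1 (5.73, adjusted p = 0.000435). Of all genes tested, 22.8% passed between heart and tail, 11.1% between kidney and tail and 26.2% between heart and kidney. The value of Col24a1 rests on the 15 counts of the HFc libraries. The Col5a3 difference between heart and kidney lost its call in several alternative fits. The test for single outlying libraries needs at least 4 in a group and was not run, but KFs replicate 3 stood apart in the comparison of replicates, with a chi-square per gene of 256 and 258 against the other KFs libraries, which gave 74.7 between them.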

How the results depend on the processing

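The transplant comparisons kept their counts within 1.5 times under every alternative, with 8 to 9 members called in HFs, 8 to 9 in KFs and 5 in TFs when replicates were left out in turn. The shares of all genes called were then 24.9 to 29%, 19.7 to 23.2% and 13.8 to 18.3%. The organ comparisons depended on the fit. With only the groups compared, 10 members were called in each of the 3 culture comparisons, 1 in KFs against TFs, 1 in HFs against KFs and 9 for the response of heart against tail, where 62.4, 58 and 51% (culture), 7.47, 5.75 and 35.5% of all genes were called. DESeq2 called 5 members in KFs against TFs, 5 in HFs against KFs and 4 for the response of heart against kidney, with 32.5, 35.4 and 29.6% of all genes. An adjusted p of 0.01 left 3 for the response of heart against tail and 1 for that of heart against kidney, with 11.5 and 14.4% of all genes. No filter left 1 for the response of heart against kidney, with 14.4% of all genes. Leaving out replicates gave 2 to 6 in HFc against KFc, 2 to 8 in KFs against TFs, 2 to 6 in HFs against KFs, 6 to 7 in HFc against TFc, 2 to 4 in KFc against TFc and 5 to 9 in HFs against TFs, and for the responses 5 to 9 (heart against tail), 2 to 8 (kidney against tail) and 1 to 4 (heart against kidney). Leaving out KFs replicate 3 reached the highest of these in HFc against KFc (6), HFc against TFc (7), KFc against TFc (4), KFs against TFs (8) and HFs against TFs (9). It also did so in the 3 responses (9, 8 and 4). Leaving out KFs replicate 1 gave the highest in HFs against KFs (6). With single replicates left out, 21.7 to 36.3% of all genes were called in HFc against KFc. The shares were 18.7 to 35.1% in KFs against TFs and 24.3 to 38.8% in HFs against KFs. They were 34.3 to 48.6% in HFc against TFc, 28.4 to 43.8% in KFc against TFc and 16.2 to 31% in HFs against TFs. For the responses they were 17 to 32.3% (heart against tail), 7.03 to 21.4% (kidney against tail) and 19.2 to 35.2% (heart against kidney). The response of Col5a3 in heart against kidney lost its call with no filter, with only the groups compared (adjusted p = 0.0508 and 0.0634), and without any single HFc or KFc library, HFs replicate 2 or 3 or KFs replicate 2 (adjusted p between 0.0567 and 0.133). The cause was not tested.

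Replicate numbers showed no sign of pairing, as the mean correlation of deviations between same-numbered libraries lay between -0.090 and 0.024 over 9 pairs of groups. With 3 libraries per group, this cannot exclude that libraries of the same number share an origin. With the number as a block, 9 members were called in HFs against HFc, 8 in KFs against KFc, 5 in TFs against TFc, 6, 3 and 3 in the culture comparisons (HFc against TFc, KFc against TFc, HFc against KFc), 7, 3 and 3 in the transplant comparisons of the same organs, and 6, 2 and 2 for the responses, Col1a2 being added for heart against tail. Of all genes tested, 27.2% were then called in heart, 21.7% in kidney and 15.8% in tail between transplant and culture. In the same order as the members, the shares were 40.8, 35.3 and 28.1% in culture and 21.9, 27.2 and 31.3% within the transplants. For the responses they were 21.4, 9.85 and 24.9%.

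Signs turned only for changes that were not called. Leaving out replicates in turn gave, for Col5a2 in KFs against KFc, -0.50 to 0.17, and in TFs against TFc -0.26 to 0.01 for Col5a1 (0.00 without TFs replicate 3) and -0.57 to 0.06 for Col2a1. In HFc against KFc, Col1a2 lay between -0.06 and 0.00. In KFs against TFs, Col5a2 ranged from -0.29 to 0.42 (-0.13, -0.03 and -0.01 among them), Col5a3 from -0.27 to 0.46 (-0.07 among them) and Col24a1 from -0.46 to 0.42 (0.07 among them). Col5a2 in KFs against TFs was -0.04 with library size alone and -0.04 with the replicate block. The Col3a1 response of heart against tail was 0.01 with no filter, with a mean of at least 10 counts and with only the groups compared, and -0.10 to 0.18 without single replicates (0.00, 0.01 and 0.03 among them). The Col3a1 response ranged from -0.87 to 0.22 for kidney against tail and from -0.22 to 0.83 for heart against kidney, and that of Col24a1 from -0.14 to 0.71 for kidney against tail, each reversing at a KFs library. Library size alone moved the median of all genes by over 0.1 in 4 comparisons, from -0.01 to -0.16 for HFc against TFc, from -0.03 and -0.04 to -0.25 for HFs against TFs and HFs against KFs, and from -0.03 to -0.14 for the response of heart against kidney.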
